A study of Mus musculus with 12 samples.

Results

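The genes of hyaluronan synthesis and degradation were followed in basal epidermal cells of healing mouse tail skin. The group holds 7 genes, namely the synthases Has1, Has2 and Has3, the precursor enzymes Ugdh and Ugp2, and the hyaluronidases Hyal1 and Hyal2. They were chosen by symbol among the probe sets that the array annotation pairs with 1 gene only, which left 8 of 28898 such probe sets and 7 of the 17097 genes measured. Has2 has 2 probe sets and each of the other genes has 1. For Has2 the probe set with the higher mean over all arrays leads, and the second is given beside it.

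CD1 mice, with no transgene named in the labels, received a 3 mm wound in tail skin, and tissue was taken 4 days (D4) or 7 days (D7) later. A punch of 4 mm took the leading edge (LE), a larger punch of 6 mm took the proliferative hub, and distant unwounded tail skin of the same day served as control. Tissue of 5 mice was pooled, and for every array 300 cells positive for α6-integrin and negative for CD34 were sorted. This gate takes basal cells of the interfollicular epidermis and the infundibulum. There were 2 arrays for each of 6 groups, 12 in all, labelled as biological replicates, and the age of the mice is not given for this experiment. The hub punch encloses the tissue around the LE punch, and the sort does not separate migrating from dividing cells within a punch.

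Hyaluronan is a long, unbranched sugar polymer of the extracellular matrix that holds water and surrounds moving and dividing cells, and it is abundant in healing skin. The HAS enzymes sit in the plasma membrane and build the chain from UDP-glucuronate and UDP-N-acetylglucosamine while extruding it. UGP2 makes UDP-glucose, which UGDH oxidises to UDP-glucuronate, and the hyaluronidases HYAL1, in the lysosome, and HYAL2, anchored at the cell surface, cut the chain.

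Values are log2 intensities of Affymetrix mouse genome arrays (PM strip format), normalized by the authors with the RMA method. The array medians were 5.40 to 5.47 at D4 and 4.25 to 4.28 at D7, which puts the days at different levels, and regions were compared within a day. The 2 arrays of a group correlated across probe sets with r of 0.988 to 0.993. One limma fit to all 6 groups gave each difference, its SE and its adjusted p (Benjamini-Hochberg over 17097 genes), and a gene was called at an adjusted p under 0.05. The basal keratinocyte list (7 genes, Krt5 and Krt14 among them) had a mean per array of 11.6 to 12 at D4 and 10.7 to 11.1 at D7. In every group 0 of its 7 genes lay below the array median. Its genes did not all stay level between regions. Krt15 in the LE was called below control on both days (-2.48, adjusted p = 0.00256, and -1.88, adjusted p = 0.0108). It was also called below the hub at D4 (-1.90, adjusted p = 0.0230). Itga6, the gene of the sorted α6-integrin, was called above control in the D4 LE (0.42, adjusted p = 0.0327). No other gene of the list was called between regions. Among 7 fibroblast markers, 4 or 5 lay below the median of both arrays in every group, and the list averaged 5.21 to 5.56 per array in the LE and 5.81 to 5.84 in control at D4, and 3.96 to 4.14 and 4.68 to 4.71 at D7. The lower list mean in the LE rests on Dcn (differences of -1.59 and -2.59) and Thy1 (-1.39 and -1.88), while the other 5 genes, among them Col1a1 (0.07 and -0.10) and Lum (0.14 and 0.21), differed by -0.26 to 0.21. At D4, 2 libraries stood apart in markers of other cells. Hub replicate 2 read 8.60 for Dct and 8.37 for Mlana, markers of melanocytes, against 5.48 and 5.21 in replicate 1, while the infundibulum marker Krt79 read 8.55 against 10.42. Control replicate 1 exceeded replicate 2 by 2.54 for Krt79, 2.25 for S100a8, 2.09 for Pecam1 and 1.87 for Cdh5. It also read higher for Mlana (7.38 against 5.28) and Dct (6.96 against 5.49). For S100a8 the hub arrays differed too, replicate 1 being higher by 2.16. Whether these markers bear on the hyaluronan genes was not tested. Each result of the 7 members is given with and without such a library where that changes its call. The cells were sorted in bulk, so fewer cells of a type and less RNA per cell cannot be told apart.

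The 250 bases upstream of the start are shown for Ugdh, which was called higher in the LE, and for Has1, which was not called in any comparison, as an example of each behaviour within the group. Both are from RefSeq on GRCm38.p6, written 5′ to 3′ on the strand of the gene, and capitals mark motif matches. The Ugdh window is chr5:65435843-65436092 on the minus strand and the Has1 window is chr17:17855189-17855438 on the minus strand.
Ugdh: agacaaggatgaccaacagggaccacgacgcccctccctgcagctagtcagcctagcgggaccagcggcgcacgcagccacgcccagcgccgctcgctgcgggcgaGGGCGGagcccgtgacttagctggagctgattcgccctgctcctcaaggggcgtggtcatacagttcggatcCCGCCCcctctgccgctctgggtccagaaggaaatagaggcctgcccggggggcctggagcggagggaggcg
Has1: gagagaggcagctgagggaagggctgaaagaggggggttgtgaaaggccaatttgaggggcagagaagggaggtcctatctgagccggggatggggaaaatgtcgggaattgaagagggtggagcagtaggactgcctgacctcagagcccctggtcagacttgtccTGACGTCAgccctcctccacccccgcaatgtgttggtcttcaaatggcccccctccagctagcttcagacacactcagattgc
The Ugdh window, of which 69.2% is G or C, holds 2 GC boxes (GGGCGG on either strand). The Has1 window, at 58% G or C, holds 0 GC boxes and 1 cyclic AMP response element (TGACGTCA). Among 32851 upstream windows of the same length, 32.7% hold a GC box and 1.55% hold the cyclic AMP response element. The windows of Hyal1 (2 boxes that overlap), Hyal2 (1) and Ugp2 (1 and 2 in its 2 windows) also hold GC boxes. None of the 5 genes with a window has the AP-1 letters TGAGTCA, present in 4.46% of all windows, or the TATA box letters TATAAA, present in 12.4%, on either strand. These are matches of letters and not binding measurements.

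In the LE at D4, 3 of the 7 genes were called higher than in control (Has2, Has3 and Ugdh) and 0 lower. Across all genes 8.3% were called higher and 5.83% lower in that comparison. In the LE at D7, 2 of 7 (Has3 and Ugdh) were called higher and 0 lower, beside 9.25% and 5.37% of all genes. In the hub at D4, limma called 0 of 7 either way at the adjusted threshold, beside 0.222% called higher and 0.105% lower over all genes. At p under 0.05 before adjustment 2 of 7 were higher and 1 lower in that comparison, beside 6.9% and 4.07% of all genes. In the hub at D7, Has3 alone of the 7 was called higher and 0 were lower, beside 0.591% and 0.17% of all genes. Before adjustment, 2 of 7 were higher there and 3 lower at p under 0.05, beside 12.7% of all genes in either direction. Against the hub, the LE had 4 of 7 called higher at D4 (Has2, Has3, Ugdh and Hyal1) and 2 of 7 at D7 (Has2 and Has3), with 0 lower on either day. All genes called higher in the LE against the hub were 2.61% at D4 and 1.33% at D7, and all called lower were 2.15% and 1.4%. The members' median log2 difference between LE and control was 0.33 at D4 and 0.28 at D7, beside 0.03 and 0.02 over all genes. Between hub and control it was -0.01 and -0.20, beside 0.01 and 0.02, and between LE and hub 0.56 and 0.25, beside 0.03 and 0.01. The LE and the hub were set against the same control arrays, so their differences from control are not independent.

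**Figure D1:**
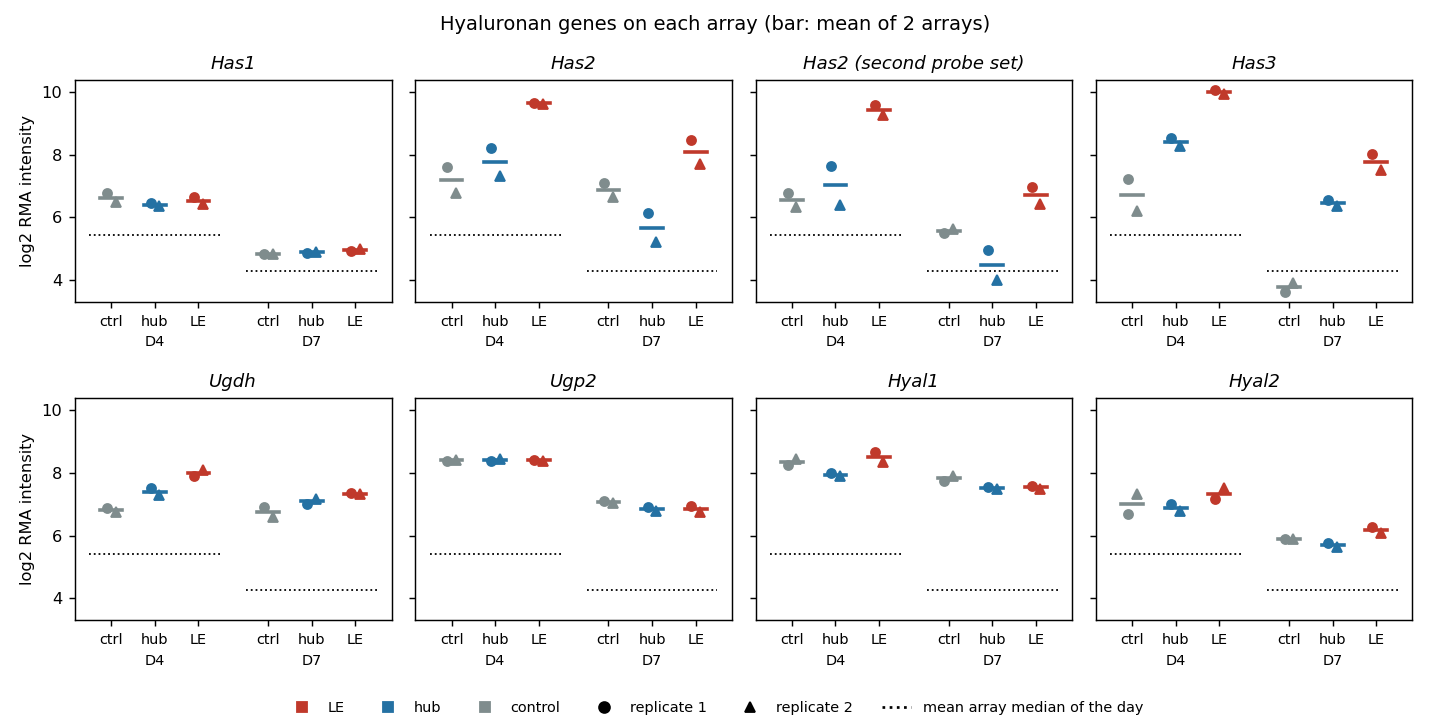
Log2 RMA intensity of the 8 probe sets on each of the 12 arrays, by region (control, hub, LE) and day. Points and triangles are replicates 1 and 2, bars are means of 2 arrays and the dotted line is the mean of the array medians of the day. Has3 separates all regions on both days, Has2 separates the LE from the other regions, and Has1 and Ugp2 lie close together within each day.

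Has3, one of the synthases of the epidermis, was higher in the LE than in control on both days and higher in the hub at D7. Its probe set (1420589_PM_at) read 10.07 and 9.95 on the 2 LE arrays at D4, 8.54 and 8.26 in the hub and 7.22 and 6.21 in control. The D7 values were 8.02 and 7.50 in the LE, 6.55 and 6.36 in the hub and 3.62 and 3.91 in control. On both days the order was LE, hub, control, and no array of one region overlapped another. The 2 control arrays of D7 lay below the median of their array, which no other array did for Has3. The values used carry no detection call, so whether Has3 was above background there is not known, and folds against these 2 arrays are as computed. The LE lay above control by 3.29 on the log2 scale at D4 (SE 0.29, adjusted p = 0.000121, 9.80-fold) and by 3.99 at D7 (SE 0.29, adjusted p = 5.36e-05, 15.9-fold). Leaving out any 1 of the 12 arrays kept both calls, with adjusted p of at most 0.00171 at D4 and 0.00144 at D7.

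In the hub, Has3 was above control by 2.69 at D7 (SE 0.29, adjusted p = 0.00570, 6.46-fold) and was called. The call was lost without hub replicate 1 (adjusted p = 0.0509), hub replicate 2 (0.0682) or control replicate 1 (0.0539) of that day, with log2 differences of 2.55 to 2.79. At D4 the difference was 1.69 (SE 0.29, adjusted p = 0.0532, 3.22-fold), just above the threshold, and was not called. With the replicate number as a block it was called (adjusted p = 0.0387). The 2 control arrays at D4 differed from each other by 1.02, replicate 1 being the higher, as it was for the markers Krt79, S100a8, Pecam1 and Cdh5. Without that array the difference was 2.20 (adjusted p = 0.00872). Both hub arrays of each day exceeded both control arrays more than 2-fold, whichever replicate was paired by number.

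Against the hub, the LE had more Has3 by 1.60 at D4 (SE 0.29, adjusted p = 0.0135, 3.04-fold) and by 1.30 at D7 (adjusted p = 0.0488, 2.47-fold). At D4 the call was lost without LE replicate 1 (1.55, adjusted p = 0.0818) or hub replicate 2 (1.46, adjusted p = 0.101). At D7 it was lost in 10 of the 12 fits that left out 1 array, all except those without a D4 control, with a log2 difference of 1.04 and an adjusted p of 0.288 without LE replicate 1 of D7. The direction was the same in all 12.

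Has2, the synthase most studied in migrating and mesenchymal cells, was high in the LE on both days. Its leading probe set (1449169_PM_at) read 9.65 and 9.62 in the LE at D4, 8.22 and 7.32 in the hub and 7.62 and 6.77 in control. At D7 it read 8.47 and 7.70 in the LE, 6.13 and 5.20 in the hub and 7.08 and 6.64 in control. The LE arrays did not overlap the other regions on either day, while hub and control overlapped at D4 and both hub arrays lay below both control arrays at D7. The gap between replicates was 0.03 in the D4 LE, 0.91 in the D4 hub and 0.84 in the D4 control. At D7 it was 0.78 in the LE, 0.92 in the hub and 0.44 in control, and replicate 1 was the higher in every group. The D4 hub and control arrays are the libraries whose melanocyte, infundibulum, endothelial and S100a8 readings also differed between replicates. In the D7 hub, replicate 1 minus replicate 2 was 0.34 for Krt79, 0.12 for Pecam1, 0.61 for Cdh5, -0.05 for S100a8 and -0.06 for Dct. Whether these markers bear on the gaps of Has2 was not tested.

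At D4 the LE exceeded control for Has2 by 2.44 (SE 0.41, adjusted p = 0.00370, 5.44-fold) and the hub by 1.87 (adjusted p = 0.0316, 3.65-fold). The call against control held with any array left out (adjusted p of at most 0.0262). The call against the hub was lost without LE replicate 1 (adjusted p = 0.136), LE replicate 2 (0.0955) or hub replicate 2 (0.215) of D4, the last with a difference of 1.42. At D7 the LE exceeded the hub by 2.42 (SE 0.41, adjusted p = 0.0178, 5.36-fold), a call lost without LE replicate 1 (2.03, adjusted p = 0.152) or hub replicate 2 of that day (1.96, adjusted p = 0.146). The difference between LE and control at D7 was 1.22 (95% interval 0.30 to 2.14, adjusted p = 0.0799) and was not called, though both LE arrays were above both controls. It was called on the arrays of the 2 groups alone (adjusted p = 0.0395) and with the replicate number as a block (adjusted p = 0.00868). The methods' rule of over 2-fold in each replicate also called it.

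Has2 in the hub was not called against control on either day. The difference was 0.57 at D4 (SE 0.41, adjusted p = 0.748) and -1.20 at D7 (95% interval -2.12 to -0.28, adjusted p = 0.245). For Has3 at D7 the hub lay between LE and control, and for Has2 it lay below both, and this contrast between genes was not tested.

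The second Has2 probe set (1418678_PM_at) read 9.60 and 9.26 in the LE at D4, 7.64 and 6.40 in the hub and 6.79 and 6.33 in control. At D7 it read 6.98 and 6.41 in the LE, 4.94 and 4.01 in the hub and 5.51 and 5.62 in control. Both probe sets thus ordered the means of the regions alike on each day. With every probe set fitted by itself, the LE exceeded control by 2.87 at D4 (SE 0.41, adjusted p = 0.00149) and by 1.13 at D7 (adjusted p = 0.101), while the LE was above the hub by 2.40 at D4 (adjusted p = 0.0103) and by 2.22 at D7 (adjusted p = 0.0260). The hub differed from control by 0.46 at D4 (adjusted p = 0.856) and -1.09 at D7 (adjusted p = 0.303). In RefSeq the Has2 gene overlaps its antisense RNA Has2os, and whether either probe set also reads that transcript was not tested.

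Has1, the third synthase, showed no called difference. It read 6.63 and 6.41 in the LE at D4, 6.45 and 6.36 in the hub and 6.78 and 6.47 in control. Its D7 values were 4.92 and 5.00, 4.85 and 4.90, and 4.82 and 4.82 in the same order. The values of a day lay close to one another, and LE and control overlapped at D4. The 6 differences between regions ran from -0.22 to 0.14, each with an SE of 0.12, and the smallest adjusted p was 0.568. For LE against control at D4 the 95% interval was -0.38 to 0.18, which does not reach the called differences of Has2 and Has3. Has1 lay above the array median on every array, but without a detection call it is not known whether it was above background. The interval therefore describes the signal of this probe set only.

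**Figure D2:**
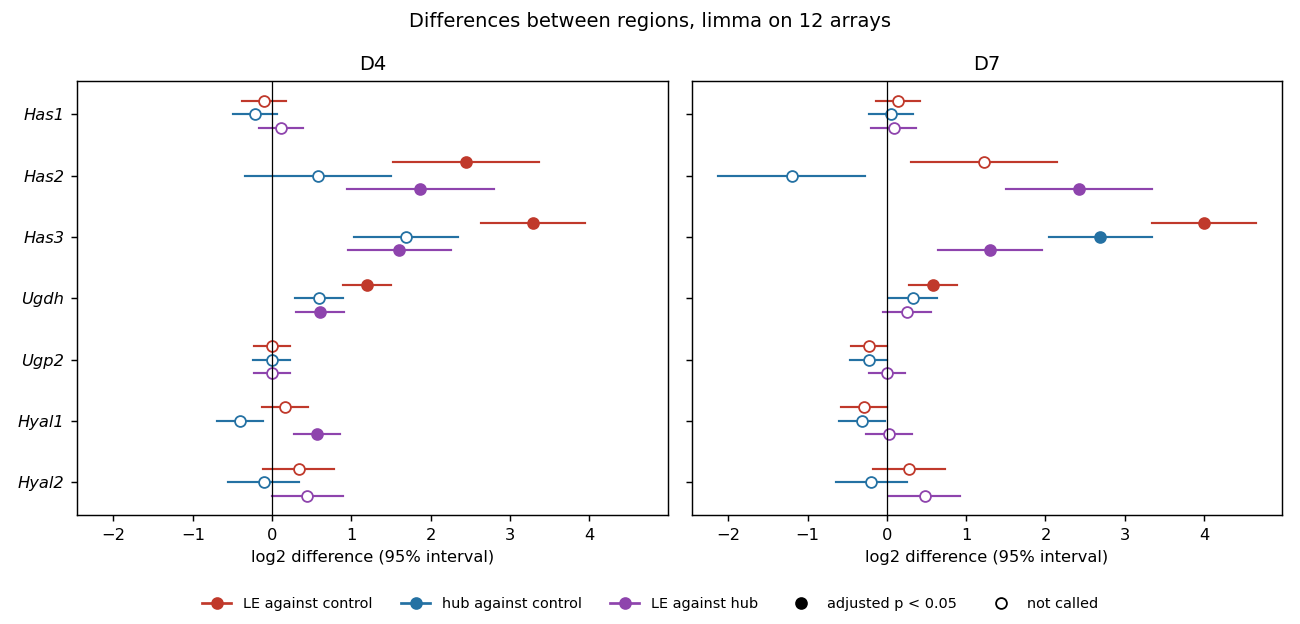
Log2 difference of each gene between regions at D4 (left) and D7 (right) from the limma fit, with 95% intervals; filled points passed an adjusted p under 0.05. Has2, Has3 and Ugdh carry the called differences, apart from Hyal1 in the LE against the hub at D4.

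Ugdh, which supplies the UDP-glucuronate that all 3 synthases consume, moved in the same direction as Has3 by a smaller amount. It read 7.92 and 8.11 in the LE at D4, 7.52 and 7.30 in the hub and 6.87 and 6.77 in control. The D7 values were 7.36 and 7.33 in the LE, 7.01 and 7.18 in the hub and 6.91 and 6.61 in control. As for Has3, the regions stood in the order LE, hub, control on both days with no overlap between arrays. The LE exceeded control by 1.19 at D4 (SE 0.14, adjusted p = 0.000440, 2.29-fold) and by 0.58 at D7 (SE 0.14, adjusted p = 0.0184, 1.50-fold). The D4 call held with any array left out (adjusted p of at most 0.00391), whereas the D7 call was lost without LE replicate 1 (0.57, adjusted p = 0.102), LE replicate 2 (0.60, adjusted p = 0.0724) or control replicate 2 of D7 (0.43, adjusted p = 0.128).

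Ugdh in the LE exceeded the hub by 0.61 at D4 (SE 0.14, adjusted p = 0.0339, 1.52-fold). That call was lost without any of the 4 arrays compared or either LE array of D7, with differences of 0.50 to 0.72 and an adjusted p of 0.235 without hub replicate 2. With the replicate number as a block it was not called (adjusted p = 0.0541). At D7 the difference was 0.25 (adjusted p = 0.425). The hub was above control by 0.59 at D4 (adjusted p = 0.127) and 0.33 at D7 (adjusted p = 0.340), and neither was called.

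Ugp2, one step before Ugdh, stayed between 8.37 and 8.44 on all 6 arrays of D4. It read 8.41 and 8.40 in the LE, 8.37 and 8.44 in the hub and 8.39 and 8.43 in control. The difference between LE and control was -0.00 (SE 0.10, 95% interval -0.23 to 0.23, adjusted p = 0.988). At D7 it read 6.95 and 6.76 in the LE, 6.92 and 6.78 in the hub and 7.10 and 7.06 in control, both wound regions lying below control on every array. The difference from control was -0.23 in the LE (SE 0.10, adjusted p = 0.191) and -0.23 in the hub (adjusted p = 0.394), and neither was called. In RefSeq Ugp2 overlaps Vps54 and Mir1933, and its probe set was not checked for strand.

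The hyaluronidases differed little between regions. Hyal1 (1449954_PM_at) read 8.67 and 8.35 in the LE at D4, 8.0 and 7.90 in the hub and 8.25 and 8.45 in control. At D4 both hub arrays lay below all arrays of the LE and the control, and the last 2 overlapped. The LE exceeded the hub by 0.56 (SE 0.13, adjusted p = 0.0384, 1.48-fold), which was called. That call was lost in 9 of the 12 fits that left out 1 array, all except those without LE replicate 2 or a control array of D4, and without hub replicate 2 the difference was 0.51 (adjusted p = 0.220). With the replicate number as a block it was not called (adjusted p = 0.0574). Against control the D4 differences were 0.16 in the LE (adjusted p = 0.535) and -0.40 in the hub (adjusted p = 0.255).

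At D7 Hyal1 read 7.57 and 7.51 in the LE, 7.55 and 7.49 in the hub and 7.76 and 7.90 in control. Both wound regions lay below control on every array, the difference was -0.29 in the LE (SE 0.13, adjusted p = 0.191) and -0.31 in the hub (adjusted p = 0.362), neither was called, and LE and hub differed by 0.02 (adjusted p = 0.970). In RefSeq Hyal1 overlaps Naa80 and Hyal3, which its probe set was not tested against.

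Hyal2 (1448679_PM_at) read 7.16 and 7.51 in the LE at D4, 7.01 and 6.78 in the hub and 6.68 and 7.32 in control. At D7 it read 6.28 and 6.08 in the LE, 5.77 and 5.64 in the hub and 5.91 and 5.89 in control. The LE arrays were the highest at D7, and at D4 the LE overlapped control. Its differences were not called, running from -0.20 to 0.48 with an SE of 0.20. The largest was the LE above the hub at D7 (adjusted p = 0.287), and the LE exceeded control by 0.33 at D4 (adjusted p = 0.360) and 0.28 at D7 (adjusted p = 0.440).

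Whether a difference between regions itself changed from D4 to D7 was tested in the same fit, and 0 of 7 members were called in any of these 3 contrasts. A change is the signed difference at D7 minus that at D4. Over all genes a positive change was called for 0.00585% in LE against control, 0% in hub against control and 0% in LE against hub, and a negative one for 0.0234%, 0% and 0.0175%. At p under 0.05 before adjustment, LE against control gave 0 positive and 2 negative changes among the 7, beside 3.98% and 3.84% of all genes. Hub against control gave 1 and 1, beside 2.49% and 2.08%, and LE against hub gave 0 and 1, beside 2.32% and 2.8%. For Has2 the change of the LE difference from control was -1.22 (adjusted p = 0.666) and that of the hub difference -1.78 (adjusted p = 0.999). For Has3 these changes were 0.70 (adjusted p = 0.753) and 1.00 (adjusted p = 0.999), and for Ugdh the LE difference changed by -0.61 (SE 0.19, adjusted p = 0.445). Calls present on one day and absent on the other were therefore not shown to differ between days.

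**Figure D3:**
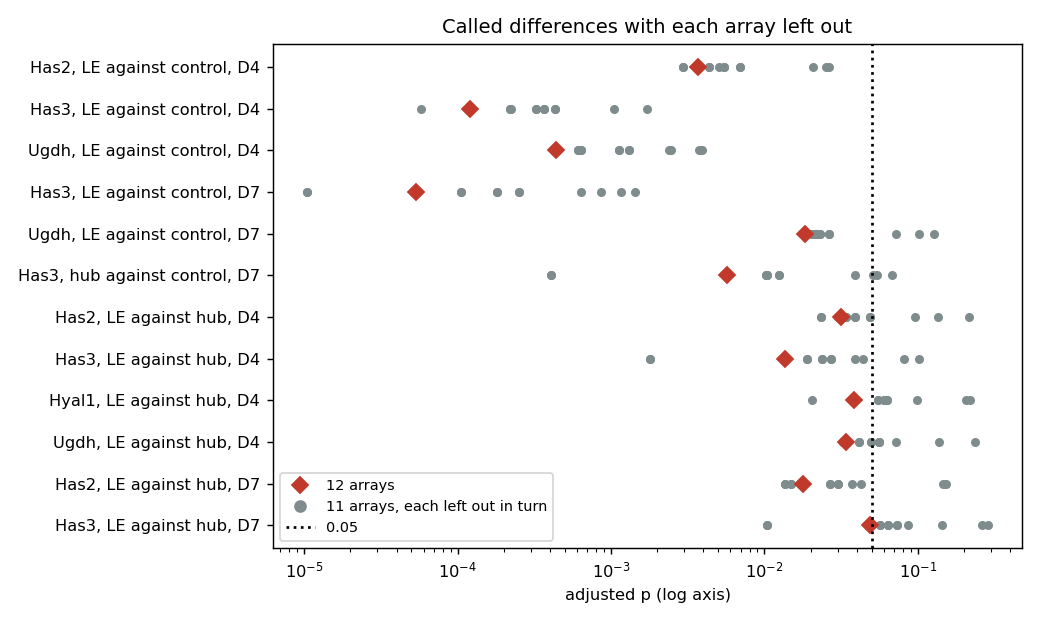
Adjusted p (log axis) of the 12 called differences with all 12 arrays (diamonds) and with each array left out in turn (points); the dotted line is 0.05. In the LE against control at D4 (Has2, Has3, Ugdh) and D7 (Has3) all points lie left of the line, while the other 8 differences have points on both sides.

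The supply of UDP-N-acetylglucosamine, the second sugar of the chain, was followed by 6 genes. In the LE 2 of 6 were called higher than control at D4 and 2 of 6 at D7, beside 8.3% and 9.25% of all genes, 0 were lower, and the median was 0.51 at D4 and 0.31 at D7. Gfpt1, which makes the first and limiting step, read 7.30 and 7.28 in the LE at D4, 6.23 and 6.30 in the hub and 6.00 and 6.22 in control. It was above control by 1.19 (adjusted p = 0.00236) and above the hub by 1.03 (adjusted p = 0.0119), the latter lost without LE replicate 1 (adjusted p = 0.0698), hub replicate 1 (0.0593) or hub replicate 2 (0.0661). Its other 3 probe sets gave 0.02 to 0.85 against control. Pgm3, the mutase of the pathway, was above control by 1.05 at D4 (adjusted p = 0.0137) and 0.97 at D7 (adjusted p = 0.0199), while its other probe set gave -0.17 and -0.22. The D4 call of Pgm3 was lost without LE replicate 1 (adjusted p = 0.0969) or control replicate 2 (0.0759), and the D7 call without LE replicate 1 (0.127), control replicate 1 (0.106) or control replicate 2 (0.0664). Gnpnat1, the acetyltransferase of the pathway, was above control by 0.67 at D7 (adjusted p = 0.0442), a call lost in 10 of 12 fits without 1 array. Its other 3 probe sets gave 0.58, -0.12 and -0.24 at D7, and their average with the first was 0.22 (adjusted p = 0.219). In the hub limma called 0 of 6 on either day, with 1 at an unadjusted p under 0.05 on each day, beside 11% of all genes at D4 and 12.7% at D7.

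Another list held genes of UDP-glucuronate transport and of the chondroitin, dermatan and heparan sulfate chains that also contain glucuronate. Of 14 measured among 16 listed, the LE had 5 called above control at D4 and 3 at D7, and there was 1 in the hub at D7, and 0 were lower in any comparison. Over all genes the shares called higher were 8.3%, 9.25% and 0.591% in these comparisons. Dse, the epimerase that turns chondroitin into dermatan sulfate after the chain is built, had the largest differences of the list. It read 6.61 and 6.61 in the LE at D4, 4.89 and 4.84 in the hub and 4.09 and 4.18 in control, and at D7 5.88 and 6.25, 4.79 and 4.71, and 3.50 and 3.77. Like Has3 and Ugdh, it stood in the order LE, hub, control on both days without overlap. All control arrays and the D4 hub arrays lay below the median of their array, with no detection call to say whether Dse was above background there. The LE difference from control was 2.48 at D4 (adjusted p = 1.14e-05) and 2.43 at D7 (adjusted p = 2.32e-05), and against the hub it was 1.74 at D4 (adjusted p = 0.000207) and 1.32 at D7 (adjusted p = 0.00265). The hub exceeded control by 1.12 at D7 (adjusted p = 0.00963), a call lost without hub replicate 1 (0.0640), hub replicate 2 (0.112) or control replicate 1 (0.0796) of that day.

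Chsy1, a chondroitin polymerase, was above control in the LE by 0.92 at D4 (adjusted p = 0.00337) and 0.85 at D7 (adjusted p = 0.00540), and above the hub by 0.65 at D4 (adjusted p = 0.0405; 0.0626 with the replicate block). The D7 call was lost without LE replicate 1 (adjusted p = 0.0552), and the call against the hub without any of the 4 arrays compared (adjusted p of 0.116 to 0.193). Csgalnact1, which adds the first N-acetylgalactosamine of the chondroitin chain, was higher in the LE by 0.87 at D4 (adjusted p = 0.0109), a call lost without LE replicate 1 (0.0753) or control replicate 1 (0.0519). Its other probe set gave 0.25 at D4, and the D4 control arrays (4.54 and 5.11) lay below the median of their array. Chpf, a partner of the polymerase, was higher by 0.72 at D7 (adjusted p = 0.0268), a call lost without any of the 4 arrays compared (adjusted p of 0.0524 to 0.151).

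Among 8 hyaluronan receptors the LE had 3 called above control at D4, and at D7 it had 1 called above and 1 below, beside 8.3% of all genes above at D4, and 9.25% above and 5.37% below at D7. Cd44, the main hyaluronan receptor of keratinocytes, was not among them. It read 11.77 and 11.58 in the LE at D4, 11.54 and 11.40 in the hub and 11.59 and 11.31 in control, a difference between LE and control of 0.23 (SE 0.13, adjusted p = 0.333), and at D7 of 0.10 (adjusted p = 0.699). The other Cd44 probe sets gave -0.45 to 0.42 for the same D4 comparison. Hmmr, a receptor that also binds the mitotic spindle, differed by 0.17 at D4 (SE 0.14, adjusted p = 0.552), with up to 0.86 on another probe set. Lyve1, a receptor best known from lymphatic vessels, was above control by 2.89 at D4 (SE 0.49, adjusted p = 0.00371), with LE arrays at 8.71 and 9.41, hub arrays at 7.82 and 7.25 and control arrays at 7.05 and 5.29. With 1 array left out the difference ran from 2.01 to 3.76 and was called each time, and on the arrays of the 2 groups alone it was not called (adjusted p = 0.0682). Stab1, a scavenger receptor of macrophages and some endothelia, was above control by 0.99 at D4 (adjusted p = 0.00780) and 1.50 at D7 (adjusted p = 0.00102). Its D4 call was lost without LE replicate 2 (adjusted p = 0.0532), and its call above the hub at D4 (0.79, adjusted p = 0.0487) in 10 of 12 fits without 1 array.

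Markers of the cell types known for Lyve1 and Stab1 were read on the same arrays. The 5 endothelial markers averaged 5.88 to 6.40 per array in the LE at D4, 5.48 to 6.17 in the hub and 5.17 to 6.52 in control, and at D7 5.46 to 5.59, 4.29 to 4.61 and 4.35 to 4.72. Of these 5, Cdh5, a cadherin of vessel walls, was the one called higher in the LE at D7, by 2.03 against control (adjusted p = 0.0270) and 2.56 against the hub (adjusted p = 0.0342), and 0 were called at D4. The 8 immune markers averaged 5.41 to 5.69 in the LE at D4 and 5.13 to 5.62 in control. At D7 these ranges were 4.11 to 4.15 and 3.63 to 3.87. The higher LE mean rests on S100a8, also made by wounded keratinocytes and called higher in the LE at D7. S100a8 read 8.35 and 8.13 in the LE at D7 and 4.55 and 3.51 in control. Between LE and control at D7, Ptprc differed by 0.07, Cd207 by -0.13, Cd3e by -0.02 and Cd74 by -0.98. The part of these cells in the values of Lyve1, Stab1 or the members was not tested. Of the 7 fibroblast markers, the LE had 1 called below control at D4 and 2 at D7, and of the 6 suprabasal markers 3 were called lower at D4, while Ivl of that list differed by 0.72 (adjusted p = 0.0800). The part of fibroblasts and suprabasal cells in the values of the members was not tested either.

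The remaining receptors moved by about 1 log2 unit or less. Layn was higher in the LE by 0.48 at D4 (adjusted p = 0.0121) and above the hub by 0.51 (adjusted p = 0.0223). The first call was lost without LE replicate 2 (adjusted p = 0.0623) or control replicate 1 (0.0686), and the second without any of the 4 arrays compared (0.0669 to 0.129). Tlr2, an innate immune receptor that binds hyaluronan fragments, was lower than control at D7, with a difference of -1.11 in the LE (adjusted p = 0.00272) and -0.95 in the hub (adjusted p = 0.0431), the latter lost in 10 of 12 fits without 1 array. It read 4.32 and 4.70 in the LE, 4.76 and 4.57 in the hub and 5.83 and 5.40 in control.

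Of 8 measured among 10 other genes of hyaluronan breakdown, the LE had 1 called above control at D4 and 2 at D7, beside 8.3% and 9.25% of all genes, with 0 lower. Cemip2, a cell-surface protein reported to depolymerise hyaluronan, was above control by 0.82 at D4 (adjusted p = 0.0129) and 0.90 at D7 (adjusted p = 0.00889), and above the hub by 1.03 at D4 (adjusted p = 0.0103). It read 8.17 and 7.62 in the LE at D4, 6.96 and 6.75 in the hub and 7.12 and 7.01 in control. Its call against control was lost at D4 without LE replicate 1 (0.55, adjusted p = 0.0738) or control replicate 2 (0.0670), and at D7 without LE replicate 1 (0.0754) or control replicate 1 (0.0685), and that against the hub without LE replicate 1 (0.0546) or hub replicate 2 (0.0860). Its other 2 probe sets gave 0.67 and 0.06 against control at D4, and 0.10 and 0.11 at D7. Gusb, the lysosomal β-glucuronidase, was higher by 0.71 at D7 (adjusted p = 0.0426), a call lost in 7 of 12 fits without 1 array. Cemip, a secreted hyaluronan-depolymerising protein, differed by 0.28 at D4 (SE 0.13, adjusted p = 0.211) and -0.18 at D7 (adjusted p = 0.443). The other Cemip probe sets gave 0.61 and 0.23 at D4, and 0.25 and -0.01 at D7. Of 15 measured among 17 hyaluronan-binding matrix proteins, limma called 0 in any of the 6 comparisons, with 0 to 3 at an unadjusted p under 0.05 in each. The shares of all genes at that threshold were 25.6% (D4) and 27.1% (D7) for LE against control, 11% and 12.7% for hub against control, and 16.3% and 15.8% for LE against hub. On both days most of the binding proteins read below the array median, among them Tnfaip6 (2.54 to 3.52 at D7) and Ptx3 (3.39 to 3.72 at D7). Without a detection call it is not known whether they were above background, so the lack of calls does not show that they were unchanged.

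**Figure D4:**
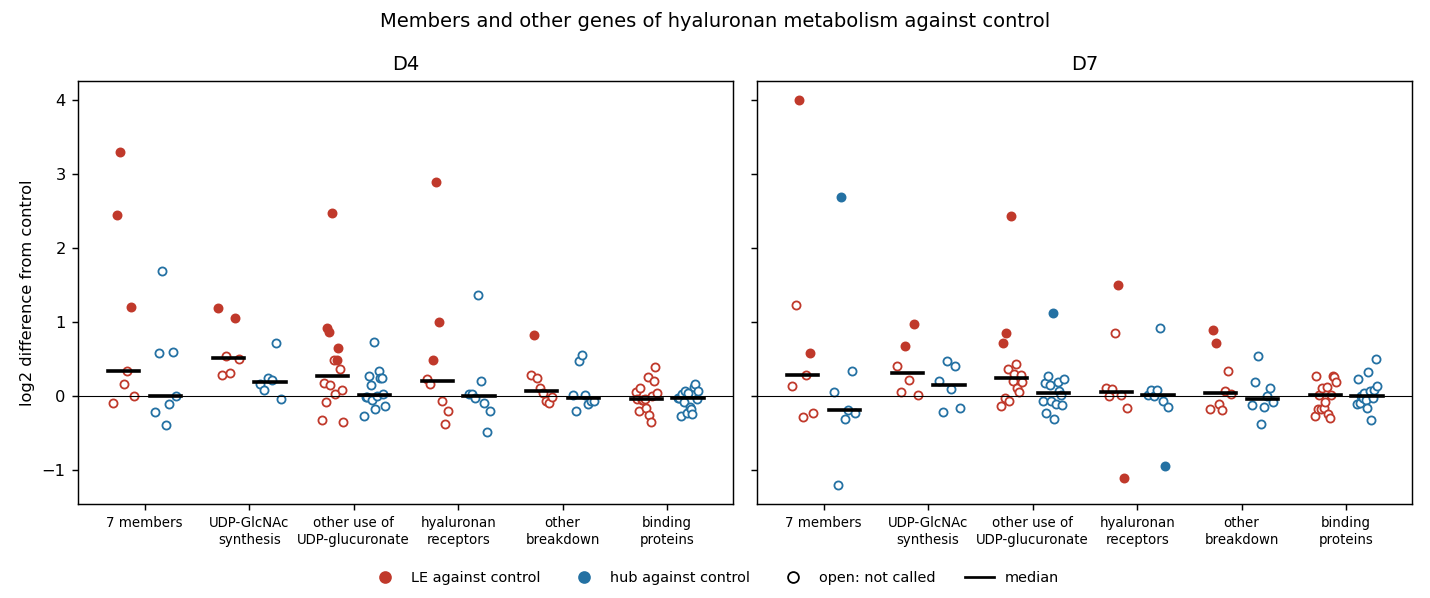
Log2 difference from control of each measured gene in the LE (red) and the hub (blue), by list, at D4 (left) and D7 (right); filled points were called and bars are list medians. The members Has2, Has3 and Ugdh, with Dse and Lyve1, lie above the bulk of their lists in the LE at D4, and the binding proteins lie around 0.

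Likeness between genes was described by Pearson's r over the 12 arrays after the mean of the 6 arrays of a day was subtracted. These points share their 6 groups, so r mostly follows the differences between regions, and no p is given. Among members, Has3 was most like Ugdh (r = 0.87), and Has2 was less like Has3 (0.60) than like Ugdh (0.72) or Hyal2 (0.67). Between Has3 and Ugp2, which was called in no comparison, r was -0.60. Over all genes, the 5 most like Has3 were Sh2d5 (0.989), Igsf3 (0.989), the wound keratin Krt6a (0.988), Eif4ebp1 (0.987) and the cornified envelope gene Sprr2h (0.986), and 512 genes had r over 0.9. For Ugdh they were Cmpk1 (0.982), Golga7 (0.979), Hif1a (0.979), Slc33a1 (0.971) and Psmd14 (0.969), and 232 genes had r over 0.9.

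Has2 and Hyal1 had fewer such neighbours. The 5 genes most like Has2 were Flna (0.963) and Actr3 (0.943), which encode an actin crosslinker and a subunit of the actin-nucleating complex, then Lrrfip1 (0.940), Nipa2 (0.931) and Limd2 (0.929), and 25 genes had r over 0.9. Hyal1 had 1 gene over 0.9, Parp4 (0.910), followed by Nrk (0.887), 1700088E04Rik (0.876), 4833438C02Rik (0.860) and Igfbp3 (0.853).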

How the data were processed

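RNA of 300 sorted cells per sample was amplified and hybridized to Affymetrix mouse genome arrays (PM strip format). The deposited log2 values had been made by the authors with RMA, for which the sources used here give no version. No raw files were used. Of 45141 probe sets, 28898 carried 1 gene name in the platform annotation and were used, and 104 controls, 551 with several names and 15588 without a name were not. Each of 17097 genes was represented by its probe set with the highest mean, without a filter on dim ones. The 6 group means were estimated with limma 3.58.1 (R 4.3.3; 6 residual degrees of freedom), and every p is from this moderated test. The number of arrays limits the precision. Nothing states that both arrays of a group came from separate pools, so p-values measure only the spread between these arrays, which may be technical.

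Members and lists were chosen with earlier results of these data known. Of the other lists, Cd44, Hmmr, Cemip and up to 4 called genes with the largest difference are named, and for each called member the 5 most like genes. The methods' rule, over 2-fold in each replicate, was one alternative. Others were 3 scalings, probe sets averaged or fitted singly, a dim filter, array weights, another prior, fits on a day or 2 groups, a minimum change of 2-fold (treat), a replicate block, and leaving out each array. Same-numbered arrays of different regions deviated together across genes at D4 (r of 0.170 to 0.245) and not at D7 (0.002 to 0.067). The block stands beside the D4 results whose call it changes, and beside Has2 at D7. The procedure was tested on simulated data. Upstream sequences came from RefSeq for 5 of the 7 genes.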

Additional observations from a re-analysis of the deposited data

How the results depend on the processing

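Over 25 alternatives, 1438 of 1512 values of single members kept their side of the threshold, 64 lost a call and 10 gained one. Of the called values 0 changed sign, while 37 values not called did. In the LE against control at D4, 3 genes were called (3 without any 1 array) and 1 in a test for a change over 2-fold. At D7, 2 were called, 1 with that test, and 1 to 2 without 1 array. In the hub at D4, 0 were called. There 1 (Has3) was called with all probe sets averaged (adjusted p = 0.0484), with the filter on dim genes (0.0464), with array weights (0.0419), with a trended and robust prior (0.0157) and by the rule of over 2-fold in each replicate, and 0 to 1 without 1 array. In the hub at D7, 1 was called, 0 with the test for a change over 2-fold, and 0 to 1 without 1 array. In the LE against the hub at D4, 4 were called, 2 with the trended and robust prior, 0 on the arrays of the day alone, 1 on the groups compared alone, 0 with the test for a change over 2-fold, 2 by the rule of over 2-fold, and 0 to 4 without 1 array. At D7, 2 were called, 1 after quantile normalization of all 12 arrays, 1 with each probe set by itself, 0 with the test for a change over 2-fold, and 0 to 2 without 1 array. Has2 in the LE at D7 gained a call against control on the groups compared alone (adjusted p = 0.0395) and by the rule of over 2-fold in each replicate. Among other pathway genes, Pgm3 in the LE was not called with its probe sets averaged (adjusted p = 0.0657 at D4 and 0.107 at D7). Apart from the fits with fewer arrays and the stricter tests, the cause of these moves was not tested.

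No label says that a replicate number marks shared mice. With the replicate number as a block, 1 gene was called in the hub at D4 (Has3, adjusted p = 0.0387), 2 in the LE against the hub at D4 (Hyal1 at 0.0574 and Ugdh at 0.0541 were lost), and Has2 in the LE at D7 was called (0.00868). The 2 arrays per group limit all values, and Has3 in control at D7 lay below the array median.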
